A study of Mus musculus with 24 samples.

Results

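RNA levels were compared between neural stem cells (NSCs) homozygous for the MommeD43 allele of Smchd1 and wild-type NSCs, both from mice of the FVB/NJ strain. The libraries were taken by their labels as those of the strain without a GFP fusion, which gave 11 of the 24 libraries of the series: 6 from 5 wild-type lines (Smchd1+/+) and 5 from 4 MommeD43 lines (Smchd1MommeD43/MommeD43). A further MommeD43 column, replicate 3 of batch 1, was left out because its value in every gene was exactly the average of the rest of its group. The lines were grown as adherent primary cultures from cortices of E14.5 embryos and were harvested at no more than 10 passages. Each library of polyadenylated RNA was made from 100 ng of RNA. The question was which genes and pathways differ between these genotypes, over the 14922 genes of the deposited table.

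SMCHD1 is a chromatin protein of the structural maintenance of chromosomes family that keeps genes silent on the inactive X chromosome and at clustered autosomal genes, among them the clustered protocadherins and some imprinted genes. MommeD43 is a chemically induced missense allele, A667E, coded in exon 15 and recovered from a mutagenesis screen for modifiers of transgene silencing. It was made on mice that carried a reporter transgene and was later bred away from it on FVB/NJ. NSCs of the embryonic cortex divide in the presence of EGF and FGF and can give rise to neurons, astrocytes and oligodendrocytes. Wnt signals received by Frizzled receptors, Notch and Hedgehog signals act on their growth and fate.

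Each line is called by its replicate number. Line 2 of either genotype was sequenced in both batches and its libraries were averaged. Wild-type lines 1 and 3 and MommeD43 line 1 were in batch 1 alone, and wild-type lines 4 and 5 and MommeD43 lines 4 and 5 were in batch 2 alone. Levels are log2 CPM, the log2 of read counts scaled to a common library size, as deposited after the authors had corrected them for batch. A change is the fitted MommeD43 minus wild-type difference on this log2 scale, with its 95% interval, and adjusted p is from limma with Benjamini-Hochberg adjustment over all genes. Changes were called at adjusted p under 0.05.

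Several properties of the libraries bear on the results. The libraries of batch 2 were shallower: relative to the deepest of these libraries, the median depth was 0.773 in batch 1 (range 0.589 to 1) and 0.185 in batch 2 (range 0.153 to 0.213). The lines of batch 2 alone also stood apart. Between 341 and 422 genes in each of these 4 lines lay more than 1 log2 unit from the mean of the rest of the group, against 9 to 94 genes in each of the other 5 lines. Wild-type line 4 and MommeD43 line 5 lay mostly below their groups (350 of 396 genes and 292 of 341), and wild-type line 5 and MommeD43 line 4 mostly above (335 of 422 and 285 of 373), so this pattern crossed the genotypes. The fit weighted the libraries unequally, with the batch 1 libraries of MommeD43 line 2 (4.90) and wild-type line 2 (4.26) above the other libraries of these groups (0.442 to 2.43). All lines were labelled female, yet the Y-linked genes Ddx3y, Eif2s3y, Kdm5d and Uty were listed at 4.80 to 6.67 log2 CPM in all 9 lines. Xist, the RNA that coats the inactive X chromosome, was listed at -2.45 to 0.45. The table had also been corrected by the authors for sex, and the part of that correction in these levels was not tested.

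The cells carried the markers of NSCs. All 10 NSC markers, among them Nes, Sox2 and Vim, were in the table, and their summed level was 12.44 to 12.67 log2 CPM in wild-type lines and 12.54 to 12.71 in MommeD43 lines. Neuronal markers summed to 4.72 to 5.47 in wild type and 4.64 to 4.95 in MommeD43 (7 of 7 in the table, 2 under 1 CPM in all lines). Astrocyte markers summed to 6.42 to 7.44 and 6.86 to 8.02 (5 of 6 in the table). Oligodendrocyte-lineage markers summed to 9.04 to 9.22 and 9.10 to 9.27 (6 of 6, 1 under 1 CPM in all lines). Most of that sum was Olig2, at 8.96 to 9.18 over all lines, while Pdgfra ranged from 2.81 to 5.36 and Mbp from -0.28 to 2.43. Of the microglial markers only P2ry12 was in the table, at -0.78 to 0.61 and -0.28 to 1.29. Endothelial markers (5 of 5 in the table, 2 under 1 CPM in all lines) summed to 0.95 to 2.24 and 1.41 to 1.48. Fibroblast and meningeal markers (4 of 5 in the table, 3 under 1 CPM in all lines) summed to -0.87 to 1.17 and 0.37 to 1.46. The ranges of the genotypes overlapped for every cell type. In bulk RNA, fewer cells of a type and less RNA per cell cannot be told apart. Smchd1 itself was listed at 7.11 to 7.38 in wild type and 7.28 to 7.42 in MommeD43, a change of 0.05 [-0.07, 0.18]. The allele substitutes an amino acid, so this level does not check the labels.

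Of the 14922 genes, 11 (0.0737%) were called, of which 3 were higher in MommeD43 (0.0201% of all genes) and 8 lower (0.0536%). The genes that rose were Shd, Pcdhga12 and Ccdc8. Those that fell were Fzd10, Cds1, Ccdc85a, S100a11, Fndc3c1, Kcnh8, Vwa5b1 and Nlrp5-ps. At an unadjusted p under 0.05 there were 1024 genes (6.86%), 596 higher (3.99%) and 428 lower (2.87%). These shares over all genes are the background for the counts of each gene list below. The lines of the genotypes did not overlap in 156 genes (1.05%), 70 with all MommeD43 lines above all wild-type lines (0.469%) and 86 with all below (0.576%). Of the 126 ways to split 9 lines into such groups, 1 places all MommeD43 lines on a given side. Both shares were below 1 in 126, so a lack of overlap in a gene is not by itself a sign of a change.

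Most changes were small. Among the 13009 genes with a group mean of at least 0 log2 CPM (1 CPM), the median size of a change was 0.0516, the 95th percentile 0.303 and the 99th percentile 0.579. The median half-width of the 95% interval was 0.149. Only 26 of these genes had a change of over 1, 19 below 0 and 7 above.

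**Figure D1:**
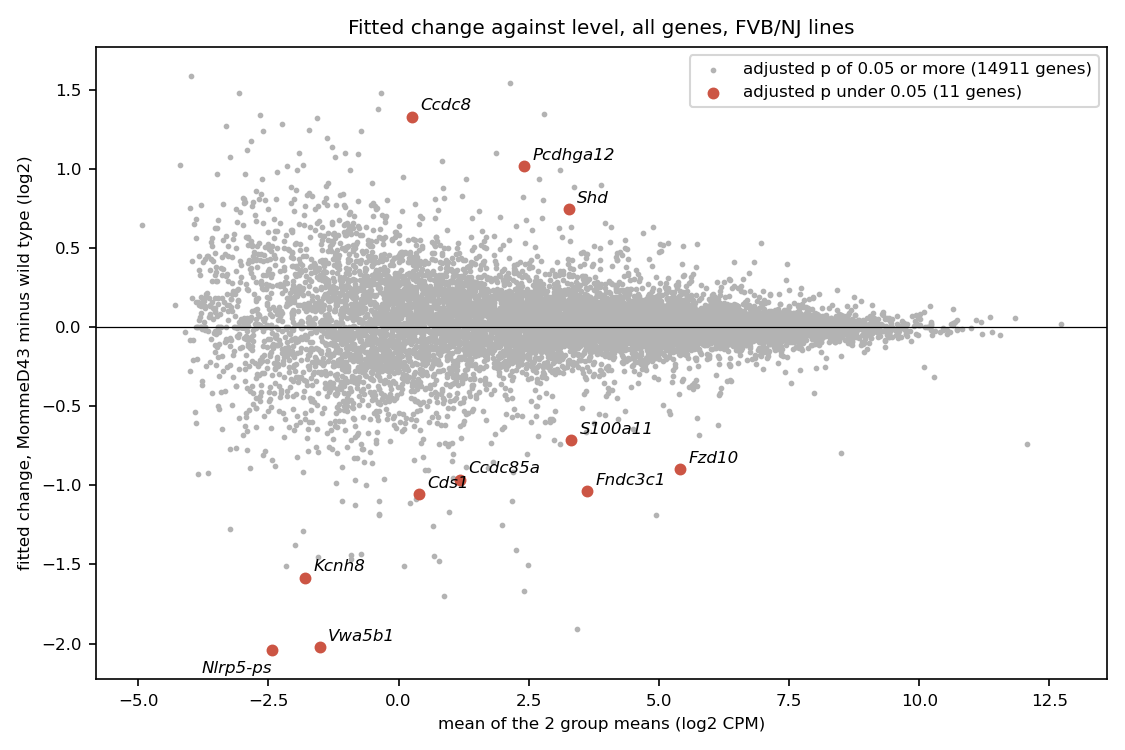
Fitted change (MommeD43 minus wild type, log2) of each gene against its mean level (log2 CPM), with the 11 called genes named and in red. Most genes lie near 0, the 3 genes that rose and 5 of the 8 that fell are at 1 CPM or more in a group, and Kcnh8, Vwa5b1 and Nlrp5-ps are below it.

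Fzd10, a Frizzled receptor for Wnt proteins (chromosome 5, 128601106 to 128604093), had the smallest p among the genes that fell. Its level was 5.87, 6.15, 5.95, 5.83 and 5.61 log2 CPM in wild-type lines 1 to 5 and 4.60, 5.32, 4.96 and 4.90 in MommeD43 lines 1, 2, 4 and 5. All MommeD43 lines were below all wild-type lines. The change was -0.90 [-1.17, -0.62], a level 1.86-fold higher in wild type (adjusted p = 0.00486). It was -1.04 in batch 1 alone and -0.83 in batch 2 alone. Without wild-type line 2 it was -0.78 and no longer passed (adjusted p = 0.219), and Fzd10 passed in the other 8 of 9 fits that left out a line.

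The neighbour of Fzd10 on the opposite strand, the long noncoding RNA 5930412G12Rik (chromosome 5, 128579130 to 128600687), starts 0.419 kb away. Its level was 2.28, 4.02, 3.27, 2.80 and 2.43 in the wild-type lines and 1.31, 2.14, 1.95 and 0.75 in the MommeD43 lines, again with no overlap. The change was -1.41 [-2.01, -0.81] and did not pass the threshold (adjusted p = 0.0708). The promoter window of Fzd10, from 250 bases before to 50 bases after the transcript start and thus covering most of the stretch between these genes, is shown from RefSeq on GRCm38.p6. It stands beside the windows of S100a11, whose neighbours are also described, and of Shd, the call that held in most fits. The sequences run 5′ to 3′ on the plus strand, and capitals mark CG dinucleotides, the sites of DNA methylation. They lie at chr5:128600856-128601155, chr17:55970232-55970531 and chr3:93520246-93520545.
Fzd10: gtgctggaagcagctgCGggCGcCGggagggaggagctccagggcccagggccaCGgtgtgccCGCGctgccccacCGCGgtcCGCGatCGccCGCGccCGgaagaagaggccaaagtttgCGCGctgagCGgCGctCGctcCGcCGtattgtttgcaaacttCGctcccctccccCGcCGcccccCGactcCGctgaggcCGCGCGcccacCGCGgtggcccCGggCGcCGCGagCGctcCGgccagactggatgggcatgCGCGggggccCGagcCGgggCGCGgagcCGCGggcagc
Shd: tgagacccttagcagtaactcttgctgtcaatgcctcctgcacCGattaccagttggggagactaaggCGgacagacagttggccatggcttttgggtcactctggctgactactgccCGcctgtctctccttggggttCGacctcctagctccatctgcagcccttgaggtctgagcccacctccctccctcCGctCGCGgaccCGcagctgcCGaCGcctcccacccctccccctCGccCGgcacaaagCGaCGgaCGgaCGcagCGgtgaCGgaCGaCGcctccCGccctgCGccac
S100a11: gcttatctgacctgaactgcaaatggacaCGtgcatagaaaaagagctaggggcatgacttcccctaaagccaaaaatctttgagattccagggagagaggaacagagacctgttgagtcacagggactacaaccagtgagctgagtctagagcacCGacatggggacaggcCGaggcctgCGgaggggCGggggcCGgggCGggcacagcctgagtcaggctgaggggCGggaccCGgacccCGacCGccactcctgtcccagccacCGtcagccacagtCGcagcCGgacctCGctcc
The Fzd10 window held 45 CG, more than 96.4% of the 14198 such windows found for 11104 genes of the table (median 20, quartiles 11 and 29). The Shd window held 22 (55% of windows had fewer) and the S100a11 window 15 (33.8%). Windows were counted for 9 of the 11 called genes, and those of Pcdhga12 and Nlrp5-ps were not. The other 6 windows held from 3 CG in Vwa5b1 to 46 in Cds1. The 9 counted genes thus did not share a CG-rich or CG-poor start, and the start of Pcdhga12 was not tested. A CG count is a description of the letters and measures no methylation.

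Shd, an adaptor protein with an SH2 domain of the SHB family (chromosome 17, 55969828 to 55976620), rose, with the smallest SE of the called genes (0.0906). Its level was 2.84, 2.98, 2.84, 2.81 and 2.75 in wild-type lines 1 to 5 and 3.74, 3.56, 3.72 and 3.75 in the MommeD43 lines. The lowest MommeD43 line stood above the highest wild-type line. The change was 0.75 [0.56, 0.93], 1.68-fold (adjusted p = 5e-04), and it was 0.76 in batch 1 and 0.75 in batch 2. Shd passed in 9 of 9 weighted fits that left out a line. It was the only gene that passed with every library weighted equally (limma, 0.82, adjusted p = 0.0408), but not once any line was then left out. The 9 genes within 100 kb of Shd had changes between -0.13 and 0.12 with overlapping lines.

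Pcdhga12, an adhesion molecule of the gamma protocadherin cluster (chromosome 18, 37765580 to 37841873), was the other gene that passed in all 9 weighted fits without a line. Its level was 2.31, 1.75, 1.52, 1.91 and 2.25 in wild type and 3.17, 2.62, 3.08 and 2.69 in MommeD43. The genotypes did not overlap, though the gap between wild-type line 1 and MommeD43 line 2 was small. The change was 1.02 [0.76, 1.28], 2.03-fold (adjusted p = 5e-04). It was 1.21 in batch 1 and 0.76 in batch 2. With every library weighted equally it was 0.93 and did not pass (limma, adjusted p = 0.254). Pcdhga12 also did not pass with FVB/NJ libraries alone. Gamma protocadherins share their last exons, and how reads in these exons were assigned was not given in the sources used here.

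Ccdc8, a subunit of the 3M complex that acts with the ubiquitin ligase CUL7 in growth control (chromosome 7, 16993902 to 16997515), was the third gene that rose. It was listed at 0.07, -0.46, -0.29, -0.28 and -0.54 in wild type and at 1.28, 0.81, 0.39 and 0.78 in MommeD43. The lines did not overlap, and the change was 1.33 [0.80, 1.86] or 2.52-fold (adjusted p = 0.0479). Ccdc8 was the least stable of the calls in fits without a line, passing in 3 of 9, and its 5 neighbours within 100 kb had changes from 0.01 to 0.13.

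**Figure D2:**
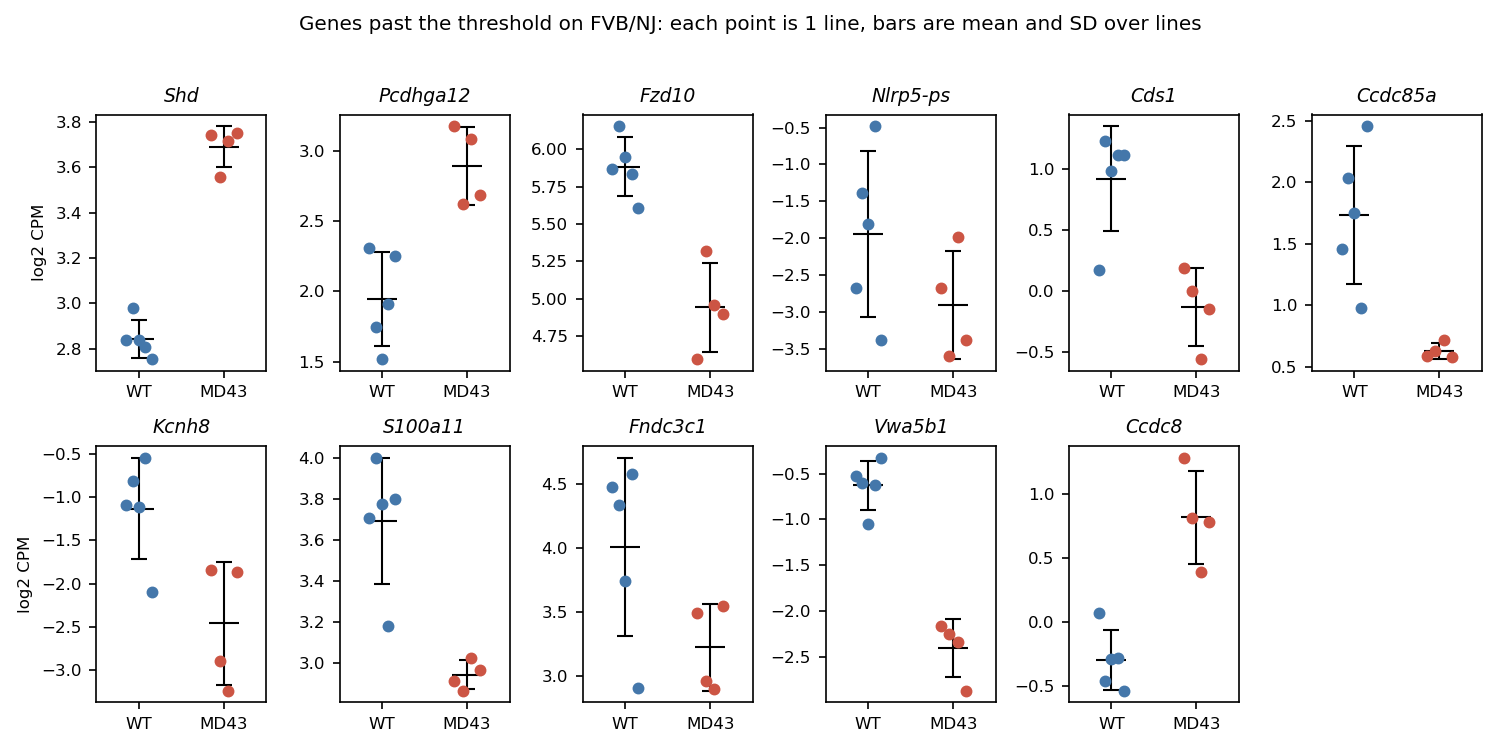
Level (log2 CPM) of each of the 11 called genes in each line, wild type beside MommeD43, with bars for the mean and SD over lines. In Shd, Pcdhga12, Ccdc8, Fzd10, Ccdc85a, S100a11 and Vwa5b1 the lines of the genotypes do not overlap, and in Cds1, Fndc3c1, Kcnh8 and Nlrp5-ps they do.

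S100a11, a small calcium-binding protein of the S100 family (chromosome 3, 93520496 to 93526288), fell. It was listed at 3.71, 4.0, 3.77, 3.18 and 3.80 in wild type and at 2.91, 2.86, 3.02 and 2.96 in MommeD43. The MommeD43 lines lay close together and below all wild-type lines, of which line 4 was lowest. The change was -0.71 [-0.98, -0.44], 1.64-fold higher in wild type (adjusted p = 0.0326).

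The next S100 gene along the chromosome, S100a10, whose protein partners annexin A2, lies 28.83 kb away. Its level was 6.72, 6.80, 6.53, 6.28 and 6.30 in wild type and 5.56, 5.94, 5.57 and 5.91 in MommeD43, with no overlap. Its change of -0.62 [-0.91, -0.33] did not pass (adjusted p = 0.110), though it did when each line entered as its mean. On the other side Tchh, which codes for the hair-follicle protein trichohyalin, lies 71.42 kb away. It was listed at -0.35, -0.16, -1.13, -2.15 and 0.81 in wild type and -2.25, -2.18, -3.53 and -1.98 in MommeD43, with a change of -1.45 (adjusted p = 0.0900) and overlapping lines. Of the 8 measured S100 genes, S100a11 alone was called (0.0737% of all genes were called). An unadjusted p under 0.05 was reached by 2, both lower (2.87% of all genes), and the other 6 had changes above 0. S100a10 and Tchh were the only other genes of the table within 100 kb of S100a11.

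**Figure D3:**
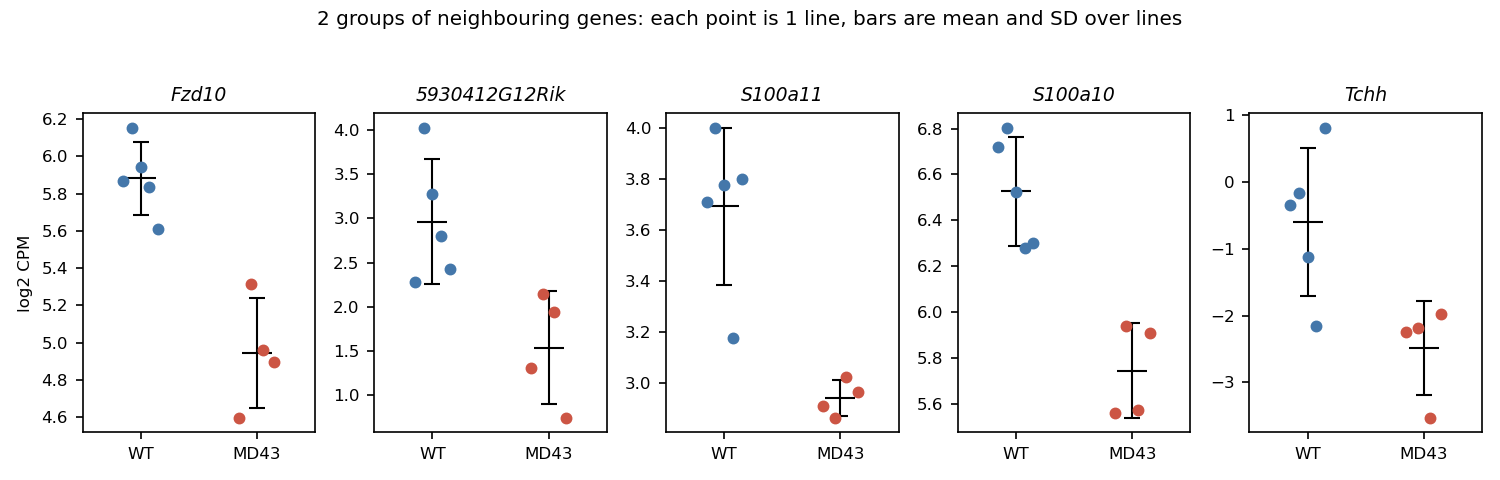
Level (log2 CPM) in each line of Fzd10 and its neighbour 5930412G12Rik, and of S100a11 and its neighbours S100a10 and Tchh, wild type in blue and MommeD43 in red, with bars for the mean and SD over lines. All MommeD43 lines lie below all wild-type lines except in Tchh, where wild-type line 4 at -2.15 lies among them.

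Cds1, which makes CDP-diacylglycerol for the synthesis of phosphoinositides (chromosome 5, 101765093 to 101823858), fell by 1.05 on the log2 scale [-1.43, -0.68] (adjusted p = 0.0281). It was listed at 0.17, 1.23, 0.99, 1.11 and 1.11 in wild type and 0.19, -0.00, -0.56 and -0.15 in MommeD43. Wild-type line 1 lay among the MommeD43 lines, and the other wild-type lines were above all of them. Its neighbour Wdfy3 at 9.095 kb had a change of 0.01.

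Ccdc85a, a coiled-coil protein (chromosome 11, 28385684 to 28587234), fell by 0.96 [-1.32, -0.61] (adjusted p = 0.0312). Its level was 1.45, 2.04, 1.75, 0.98 and 2.46 in wild type and 0.58, 0.63, 0.72 and 0.58 in MommeD43. The spread was far larger over the wild-type lines (SD 0.560) than over the MommeD43 lines (SD 0.0649), and the lines did not overlap.

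Fndc3c1, a gene of the X chromosome (106420041 to 106485577) for a protein with fibronectin type III domains, fell by 1.04 [-1.44, -0.64] (adjusted p = 0.0376). Its level was 4.48, 4.34, 3.75, 4.59 and 2.90 in wild type and 3.49, 2.96, 2.90 and 3.55 in MommeD43. Wild-type line 5, a line of the shallow batch, lay as low as the lowest MommeD43 line.

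The remaining 3 calls were below 1 CPM. Kcnh8, a voltage-gated potassium channel (chromosome 17, 52602709 to 52979194), was listed at -1.09, -0.82, -1.12, -0.54 and -2.10 in wild type and -1.84, -2.90, -3.24 and -1.87 in MommeD43 (-1.58 [-2.17, -0.997], adjusted p = 0.0312). Wild-type line 5 overlapped the MommeD43 lines. Vwa5b1, a protein with a von Willebrand factor A domain (chromosome 4, 138564229 to 138635992), was listed at -0.52, -0.60, -1.05, -0.63 and -0.33 in wild type and -2.15, -2.25, -2.33 and -2.86 in MommeD43 (-2.02 [-2.81, -1.24], adjusted p = 0.0376), with no overlap. Nlrp5-ps, a transcribed pseudogene (chromosome 7, 14530654 to 14623066), overlapped between the genotypes. It was listed at -2.67, -1.39, -1.81, -0.48 and -3.38 in wild type and -2.68, -3.60, -1.98 and -3.38 in MommeD43 (-2.04 [-2.77, -1.32], adjusted p = 0.0281). Its line means differed by only -0.96, and its change was -1.085 with every library weighted equally, both outside that interval. In batch 2, 1 wild-type and 2 MommeD43 libraries shared the lowest value of this pseudogene, which is how a count of 0 appears after the correction, and reads of a pseudogene can belong to its parent gene.

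At equal weights no gene passed once any line was left out, Shd and Pcdhga12 included. In the weighted fits, the calls other than Shd and Pcdhga12 rested on particular lines. Without wild-type line 2 the other 9 no longer passed, with changes from -1.68 in Vwa5b1 to 1.05 in Ccdc8. Without wild-type line 3 the same 9 lost their call except Fzd10 (adjusted p = 0.0189), and without wild-type line 4 Nlrp5-ps, Cds1, Kcnh8, Fndc3c1, Vwa5b1 and Ccdc8 did. Leaving out MommeD43 line 1 ended the calls of Ccdc85a (-0.88), S100a11 (-0.69) and Ccdc8 (1.12), leaving out line 4 those of Fndc3c1 (-1.01), Vwa5b1 (-1.95) and Ccdc8 (1.35), and leaving out line 5 that of Ccdc8 (1.32). Without MommeD43 line 2, the fit gave 1 library a weight of 26.5 and 976 of all genes passed. With the weights as reported kept, only Shd, Pcdhga12 and Fzd10 of the 11 passed without that line. The other 8 did not, among them Kcnh8 (-0.97, adjusted p = 0.758), Fndc3c1 (-0.66, adjusted p = 0.817), Ccdc85a (-1.12, adjusted p = 0.124) and S100a11 (-0.73, adjusted p = 0.337). All 11 kept their direction in every fit that was run. Within batch 1 alone and batch 2 alone no gene passed (limma, smallest adjusted p 0.735 and 0.0848), although an unadjusted p under 0.05 was reached by 1008 and 662 genes.

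The next genes by p, taken up to 10 in each direction at 1 CPM or more, did not pass. On the lower side Ebf1, a transcription factor of neuronal differentiation, had -1.67 (adjusted p = 0.0639), and its wild-type lines ranged from 1.31 to 3.98 and overlapped the MommeD43 lines at 1.15 to 3.06. Arhgap6, a GTPase-activating protein, was at 1.73 to 2.75 in wild type and 1.12 to 1.67 in MommeD43 with no overlap (-0.85, adjusted p = 0.0778). Tmem132e (-0.58) and Crlf2 (-0.51), a subunit of the thymic stromal lymphopoietin receptor, overlapped between the genotypes (adjusted p = 0.0708 for both).

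On the higher side were the aminopeptidase gene Lnpep (0.41, adjusted p = 0.0639), Fut9, the fucosyltransferase that makes the Lewis X epitope found on NSCs (0.40, adjusted p = 0.0708), and the protocadherin Pcdhgb7 (0.38, adjusted p = 0.0916). Lnpep was at 5.97 to 6.40 in wild type and 6.37 to 6.82 in MommeD43, and Fut9 at 5.12 to 5.50 and 5.39 to 5.79, both with overlap. Diras2 (0.81), Tlr4 (1.48), 4933432K03Rik (0.83) and the thyroid hormone deiodinase gene Dio2 (1.35) followed at an adjusted p of 0.121. In all 4 of these genes wild-type line 4 was the lowest wild-type line and MommeD43 line 5 the lowest MommeD43 line.

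The clustered protocadherins, adhesion genes of neurons in alpha, beta and gamma clusters on chromosome 18 and known targets of SMCHD1, are described as a whole and then by cluster. Of all 56 genes Pcdhga12 alone was called (0.0737% of all genes were called). An unadjusted p under 0.05 was reached by 21 with a lower level and 5 with a higher level (2.87% and 3.99% of all genes). The lines did not overlap in 9 (1.05% of all genes did not), 7 lower and 2 higher (0.576% and 0.469% of all genes). Their median change was -0.27, against 0.01 over all genes.

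In the beta cluster nearly all changes were below 0. Of its 21 genes 20 had a change below 0 (42.7% of all genes did), 16 had an unadjusted p under 0.05, all lower, and 6 had all MommeD43 lines below all wild-type lines. None was called, and the lowest adjusted p was 0.0866 for Pcdhb22. The median change was -0.45. Pcdhb22 was at 3.17, 3.61, 3.23, 3.08 and 3.63 in wild type and 2.69, 2.75, 2.84 and 2.01 in MommeD43 (-0.59 [-0.85, -0.33]), with MommeD43 line 5 lowest. Pcdhb15 was at -0.06, 0.58, 0.15, 0.46 and 0.46 in wild type and -0.19, -0.07, -0.47 and -0.42 in MommeD43 (-0.54 [-0.86, -0.23], adjusted p = 0.248). Medians relative to the mean of the 9 lines were taken over the 17 beta genes with a mean of at least 1 CPM in either genotype. They were 0.13, 0.53, 0.21, -0.03 and 0.67 in the wild-type lines and -0.18, -0.44, -0.13 and -0.74 in the MommeD43 lines. These medians did not overlap, but they spread over 0.71 within wild type and 0.62 within MommeD43. Pcdhb15 entered only through wild type (mean 0.32 against -0.29 in MommeD43), so this filter can favour lower MommeD43 medians. Over all 21 genes, the median difference from the wild-type mean was -0.51, -0.59, -0.34 and -1.04 in MommeD43 lines 1, 2, 4 and 5. The median change was -0.34 in batch 1 and -1.08 in batch 2.

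The gamma cluster went both ways. Of its 22 genes 12 had a change above 0 and 10 below, with a median of 0.03. Pcdhga12 was called, Pcdhgb7 at 2.38, 2.26, 2.39, 2.24 and 2.42 in wild type and 2.75, 2.69, 2.94 and 2.76 in MommeD43 had no overlap and did not pass, and Pcdhga7 had all MommeD43 lines below (-0.42, adjusted p = 0.337). Pcdhgb7 did pass when the fit had no mean-variance trend. Pcdhgc3 had a change of -0.05. In the alpha cluster, where 1 of 13 genes was above 1 CPM, 10 changes were below 0 and the median was -0.53. The alpha gene above 1 CPM, Pcdhac2, had a change of 0.18.

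**Figure D4:**
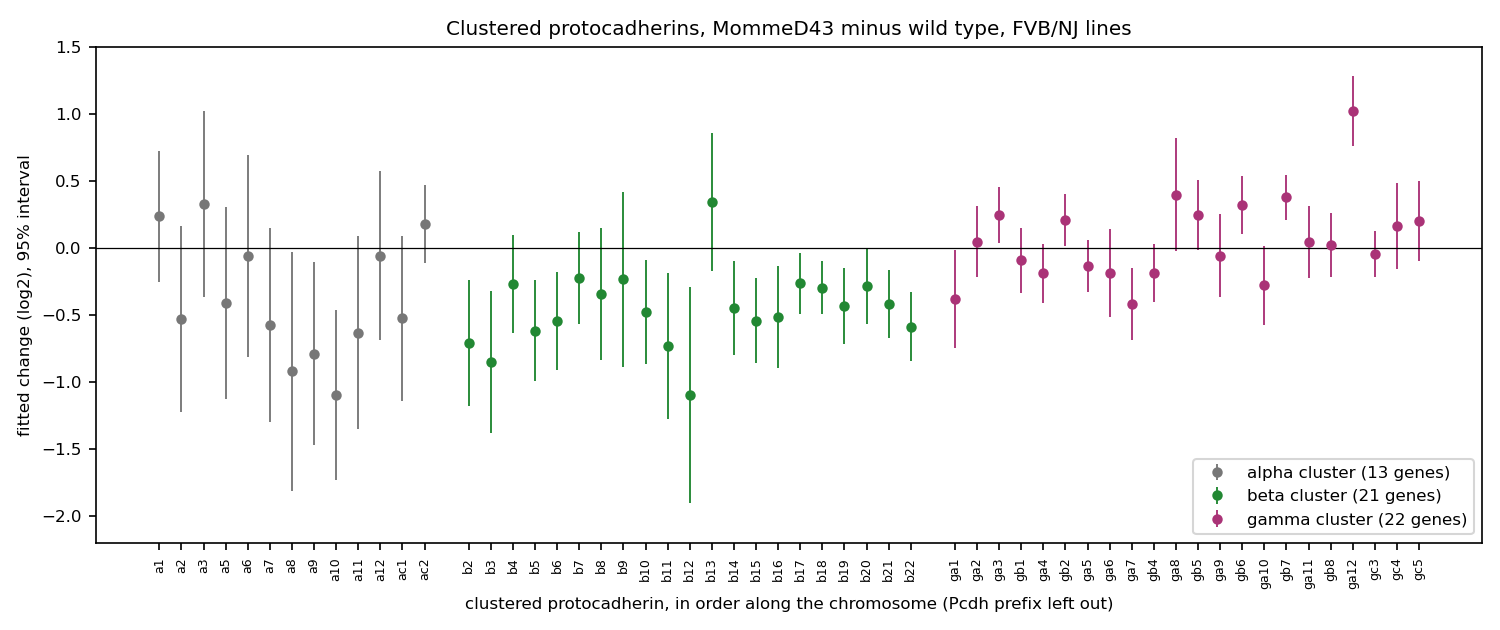
Fitted change (log2, bars for the 95% interval) of each of the 56 clustered protocadherins in the order of the clusters. In the beta cluster 20 of 21 points lie below 0, and in the gamma cluster Pcdhga12 at 1.02 and Pcdhgb7 at 0.38 lie above 0 beside neighbours on both sides of 0.

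Genes of the NSC state hardly differed. Of 15 NSC and radial glia genes none was called, 9 had changes above 0 and 6 below, and the median was 0.00. The intermediate filament gene Nes had a change of -0.09 [-0.21, 0.04].

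Differentiation genes moved with the line more than with the genotype. Of 26 neuronal genes none was called, 1 had an unadjusted p under 0.05 with a higher and 2 with a lower level, and the median change was 0.13, or -0.02 with every library weighted equally. Rbfox3, the marker of mature neurons known as NeuN, was at 0.58 to 1.14 in 3 MommeD43 lines and -1.12 in line 4, against 0.82 to 2.63 in wild type (-1.17, adjusted p = 0.140). Of 14 astrocyte genes none was called, 11 changes were above 0, and the median was 0.21, yet -0.10 in batch 2 alone. Sparcl1, a matricellular protein of astrocytes, was at 7.07 to 7.54 in wild type and 7.42 to 7.87 in MommeD43 (0.40, adjusted p = 0.168).

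Of 16 oligodendrocyte-lineage genes none was called and 14 had changes above 0 (57.1% of all genes did), with a median of 0.09. It was 0.21 in batch 1 and -0.38 in batch 2. Medians relative to the mean of the lines were taken over the 14 of these genes with a mean of at least 1 CPM in either genotype. They were 0.04, 0.19, -0.07, -0.84 and 0.29 in the wild-type lines and 0.20, -0.12, 0.48 and -0.36 in the MommeD43 lines. Wild-type line 4 and MommeD43 line 5 were lowest and MommeD43 line 4 and wild-type line 5 highest, so the largest distances ran within the genotypes. Mbp, a myelin protein, was at -0.28 in wild-type line 4 and 2.43 in wild-type line 5.

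**Figure D5:**
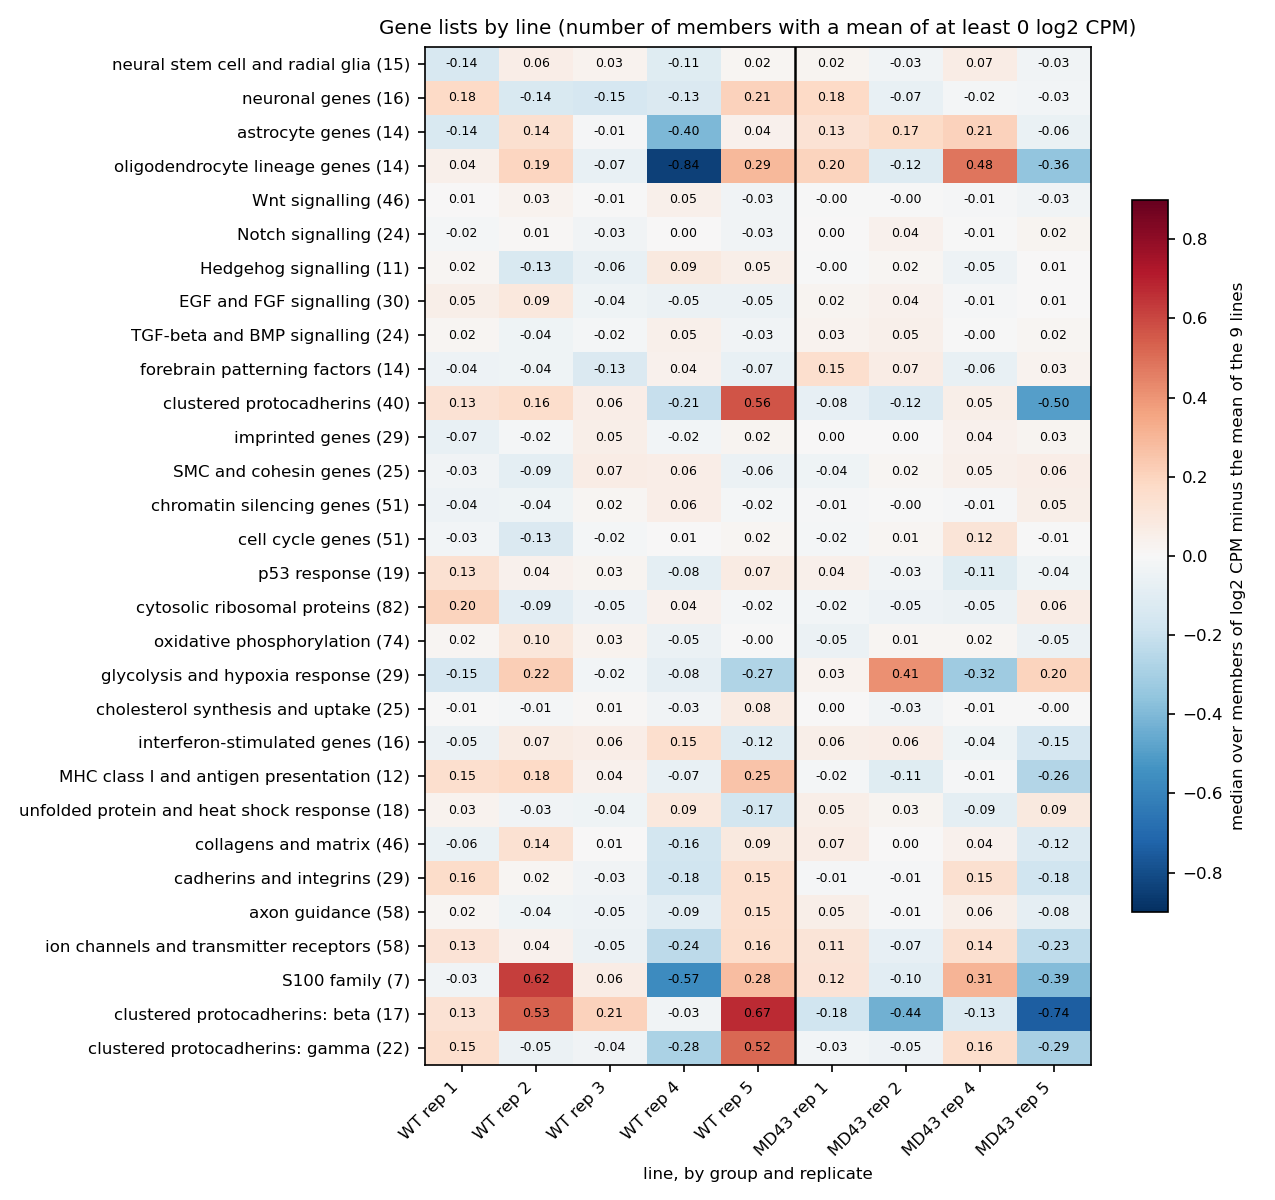
Median level of each gene list in each line relative to the mean of the 9 lines (log2), as a colour and a number, with lists in rows and lines in columns. Members have a mean of at least 1 CPM in either genotype. For the oligodendrocyte-lineage genes wild-type line 4 lies at -0.84 and MommeD43 line 4 at 0.48. For the beta protocadherins, some of which reach that level in wild type only, all MommeD43 lines lie below all wild-type lines.

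Signalling genes were mostly near 0. Of 51 Wnt genes 1 was called, Fzd10 (0.0737% of all genes were called). At an unadjusted p under 0.05 were 4 lower and 1 higher. There were 24 changes above 0 and 27 below, with a median of -0.01. Among the 17 receptors and coreceptors the median was -0.01, and 3 had an unadjusted p under 0.05, all lower (2.87% of all genes). They were Fzd10, Lgr4, a receptor for R-spondins (-0.22, adjusted p = 0.427), and Fzd4 (-0.20, adjusted p = 0.558). The lines of Lgr4 and of Fzd4 overlapped between the genotypes, and the line means of Fzd4 differed by only -0.08. Axin2, a feedback target of the pathway, was the gene with a higher level (0.22 [0.06, 0.37], adjusted p = 0.437). The medians were 0.03 for 26 Notch genes, 0.03 for 13 Hedgehog genes, 0.03 for 31 EGF and FGF genes and 0.01 for 29 TGF-beta and BMP genes, with no gene called in these 4 lists. Of 23 forebrain patterning factors none was called. An unadjusted p under 0.05 was reached by 7 with a higher and 1 with a lower level, against 3.99% and 2.87% of all genes. Of the 13 dorsal factors 6 were among those with a higher level and none was lower. The dorsal median was 0.13, or 0.06 with every library weighted equally. Over the 9 dorsal factors with a mean of at least 1 CPM in either genotype it was 0.05. Among the patterning factors Nr2f2, a ventral and caudal factor, was at -0.04 to 1.49 in wild type and -0.51 to 2.29 in MommeD43 (1.05, adjusted p = 0.371). Its value rested on MommeD43 line 2, the highest, and was 0.24 without that line with the weights as reported kept. The lines of Sp8, at -0.08 to 3.53 and 2.16 to 3.90, also overlapped.

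Genes of growth and metabolism had small changes. Of 51 cell cycle genes 48 had changes above 0 (57.1% of all genes did) and none had an unadjusted p under 0.05, with a median of 0.04. Mki67, a marker of dividing cells, had a change of 0.13 [-0.02, 0.28] and Birc5, which acts in chromosome segregation, 0.09 [-0.01, 0.20]. Of 19 p53 targets 17 had changes below 0 (median -0.05), and of 75 nuclear subunits of oxidative phosphorylation 54 did (median -0.03), against 42.7% of all genes. Without MommeD43 line 2, with the weights as reported kept, the p53 median was 0.00. Genes of such a list are measured in the same lines and can vary together, so these counts are not independent observations. The 83 cytosolic ribosomal protein genes had a median of -0.02, or 0.02 without that line, and 25 cholesterol genes -0.01. None of these lists held a called gene.

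Of 30 genes of glycolysis and the hypoxia response, 26 had changes above 0, 3 had an unadjusted p under 0.05, all higher, and the median was 0.11. Without MommeD43 line 2 the median was -0.04 with the weights as reported kept, and -0.09 with the weights estimated again. The list median relative to the mean of the lines was 0.41 in that line and between -0.32 and 0.20 in the other MommeD43 lines, against -0.27 to 0.22 in wild type. Pfkp, a phosphofructokinase, was at 5.10 to 5.69 in wild type and 5.36 to 5.88 in MommeD43 (0.51, adjusted p = 0.310).

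Genes of antigen presentation had a lower median. Of 14 MHC class I and antigen presentation genes 13 had changes below 0, 1 had an unadjusted p under 0.05 and none was called, with a median of -0.17. Tap2, a peptide transporter, was at 2.64, 2.68, 2.60, 2.54 and 2.65 in wild type and 2.37, 2.44, 2.17 and 2.23 in MommeD43 with no overlap (-0.19 [-0.44, 0.06], adjusted p = 0.864). H2-D1, a class I heavy chain, overlapped (-0.17, adjusted p = 0.749). Of these genes 11 are on chromosome 17. The 25 interferon-stimulated genes had a median of -0.01, and the 19 genes of the unfolded protein and heat shock responses -0.00, with none called.

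Silencing factors and SMCHD1 targets outside the protocadherins were close to 0. The 25 SMC and cohesin genes and the 51 chromatin silencing genes each had a median of 0.01 and no called gene. Bmi1, a polycomb subunit, had the smallest p of the latter (-0.18 [-0.28, -0.07], adjusted p = 0.308). Of 40 imprinted genes none was called, 3 had an unadjusted p under 0.05 with a higher and 3 with a lower level, and the median was 0.05. Peg10 was at 7.48 to 8.74 in wild type and 7.47 to 8.18 in MommeD43 (-0.42, adjusted p = 0.344), and Nnat at 8.13 to 8.49 and 7.95 to 8.25 (-0.25, adjusted p = 0.522).

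Genes of the cell surface held a further call. Of 91 ion channel and transmitter receptor genes 1 was called, Kcnh8 (0.0737% of all genes were called). An unadjusted p under 0.05 was reached by 14 with a higher and 8 with a lower level, against 3.99% and 2.87% of all genes. Kcna1, a potassium channel, had -1.70 (adjusted p = 0.114) with wild-type line 4 at -0.47 among the MommeD43 lines. Of 60 collagen and matrix genes none was called, with 4 higher and 8 lower at an unadjusted p under 0.05, and Col5a2 had -0.68 (adjusted p = 0.427). The 35 cadherins and integrins had a median of 0.05, and the 68 axon guidance genes had the same median.

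The X chromosome as a whole had a median change of 0.01, equal to that over all genes to 2 decimals. Of 536 X-linked genes 1 was called, Fndc3c1 (0.0737% of all genes were called). An unadjusted p under 0.05 was reached by 28 with a higher and 20 with a lower level. Both were larger shares than the 3.99% and 2.87% of all genes. On chromosome 17, which carries Smchd1, 2 of 708 genes were called (0.0737% of all genes were), Shd 15.37 Mb and Kcnh8 18.37 Mb from it. The median was 0.01. The lines did not overlap in 10 genes of this chromosome, 8 higher (1.13% of its genes, against 0.469% of all genes) and 2 lower (0.282%, against 0.576%), which lay 15.37 to 53.89 Mb from Smchd1. Within 10 Mb on either side of Smchd1 there were 87 genes, none called, 3 with an unadjusted p under 0.05 and a higher level and 1 with a lower level.

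The called genes were set beside the same allele made by genome editing in C57BL/6J cells in which Smchd1 is fused to GFP. That comparison has 6 libraries of 4 control lines and 5 libraries of 4 MommeD43 lines, it shares no library with FVB/NJ, and strain and GFP fusion differ together. Of the 11 genes 10 had a fitted change of the same direction there and none was called. The exception was Shd, with -0.08. For Vwa5b1 the fitted change there was -0.32, while its line means were -0.61 in controls and -0.22 in MommeD43, a difference of the opposite sign. Weights of those libraries ran from 0.101 to 2.56, and other fitted changes also departed from the line means. Ccdc8 had 0.17, with line means of -0.24 in controls and 0.65 in MommeD43. Ccdc85a had -0.05 (3.80 and 3.24), S100a11 -0.08 (4.53 and 4.03) and Fzd10 -0.02 (6.61 and 6.32). In Shd, Cds1, Kcnh8 and Nlrp5-ps the fitted change was instead the larger in size. The fitted difference between the strains had an unadjusted p under 0.05 in 9 of the 11 genes. It passed in none of them after adjustment (lowest adjusted p = 0.243, for Shd). Over all genes it passed in 0 of 14922 (0%) by limma. An unadjusted p under 0.05 was reached by 458 genes, or by 95 with every library weighted equally. Since the 11 genes were chosen by their FVB/NJ values, a smaller change in other cells is not a result about them. Pcdhga12 had 0.64 in C57BL/6J, Pcdhgb7 0.51, and the median change of the beta protocadherins was -0.14. Tchh, beside S100a11, had -2.40 (adjusted p = 0.0569).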

How the data were processed

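Polyadenylated RNA of primary NSCs was sequenced by the authors, who trimmed reads with Trim Galore 0.4.4, mapped them with HISAT2 2.0.5 to GRCm38.p6 and used limma 3.40.6, per the labels' processing notes. The counter and its use of strand were not given in the sources used here. The deposited values are log2 CPM, which the authors had corrected for sex, strain and batch in a joint analysis with further libraries not used here. They are not counts. The absolute depth is therefore unknown and no counting interval is given. Relative depth was read from the spacing of low values, where 1776 values within 10 steps of the lowest were all whole multiples (100%, tolerance 0.05 step).

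The tests used limma 3.58.1 under R 4.3.3 on the 22 usable libraries of 4 groups, with group and batch as terms, array quality weights, a mean-variance trend, and the line as a block (correlation 0.0829). There were 16 residual and 4.86 prior degrees of freedom. Voom on counts had been planned and could not be used on log2 values. Adjustment was by Benjamini-Hochberg across the 14922 genes. Replicates are separate lines by their labelled line numbers, and a line sequenced in both batches entered group means once, as the mean of its libraries. Positions and promoters are from RefSeq on GRCm38.p6, matched for 14453 genes and not for 469, and 247 genes had a blank symbol. All per-sample columns matched a label. The fits were tested on simulated data first.

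Genes named are all that passed, the 10 with the smallest p in each direction at a group mean of at least 0 log2 CPM, up to 4 per list by the same criteria, Smchd1, Xist, Y-linked genes and cell type markers. Neighbours within 100 kb of called genes, further protocadherins and small RNAs were added after their values were seen. The comparison, the lists and the rule were chosen with earlier results of these data known. Lists are described by counts and medians with no set test. Hox genes are not analysed here. Alternatives were equal weights, FVB/NJ libraries alone, line means, independent libraries, a filter on low values, log2(CPM + 1), centring each library, all 24 columns, robust moderation, no trend, each batch alone, the replicate number as a block, and leaving out each line. Figures were drawn with matplotlib 3.10.9.

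Whether the replicate numbers pair the lines could not be settled. In batch 1 the deviations of MommeD43 lines 1 and 2 mirror each other, so their correlations are not independent. Deviations of same-numbered libraries of the genotypes from their group means correlated at -0.62 to 0.38 over 7 pairs, and those of differently numbered libraries of a batch at -0.38 to 0.61 over 10 pairs.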

Additional observations from a re-analysis of the deposited data

Results flagged for a closer look

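Among 220 groups of lines looked at, 11 held a line far from the rest of its genotype by Dixon's 95% criterion. Chance gives about 1 in 20. In wild type, Cds1 was 0.169 log2 CPM in line 1 against 0.987 to 1.23 in the other lines. Neurl1b, a ubiquitin ligase of Notch ligands, was 2.47 in line 4 against 3.11 to 3.31, and Lrif1, a partner of SMCHD1, was 4.06 in line 5 against 3.41 to 3.59.

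In MommeD43, 3 of the flags fell on line 4. Sp8, a forebrain transcription factor, was 3.90 there against 2.16 to 2.25 in the other lines, the Notch ligand gene Jag1 was 5.81 against 6.20 to 6.25, and Ndufb3, a subunit of complex I, was 5.85 against 5.54 to 5.58. Xist was 0.450 in MommeD43 line 5 against -0.962 to -0.744.

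List medians relative to the mean of the 9 lines gave the other 4. The median of the fibroblast and meningeal markers was 0.229 in MommeD43 line 2 against -0.207 to -0.136 in the other MommeD43 lines. That of the chromatin silencing genes was 0.0541 in MommeD43 line 5 against -0.0100 to -9.5e-05. That of the cell cycle genes was -0.134 in wild-type line 2, the wild-type line of the highest weight, against -0.0260 to 0.0165. For a list made on other tissue, genes with lower levels in frontonasal prominence of MommeD43 embryos, it was -0.399 in wild-type line 4 against 0.0133 to 0.129, and their median fitted change was 0.12. The causes were not tested.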

How the results depend on the processing

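All 11 called genes kept their direction under every alternative, but the number called moved widely. It was 11 as reported, 8 with line means, 12 with libraries taken as independent, 12 after a filter on low values (13479 genes) and 10 with robust moderation. It was 1 with equal weights, 1 with FVB/NJ libraries alone, 3 on log2(CPM + 1), 19 after centring, 7 without the trend, 0 in either batch alone and 510 with all 24 columns, where the columns equal to a mean narrow the spread. With the replicate number as a block it was 29 (8 higher, 21 lower, all 11 shared), though whether the numbers pair the lines is not known. Without a line it was 3 to 976: 22 without wild-type line 1, 3 without line 2, 3 without line 3, 7 without line 4 and 20 without line 5, 15 without MommeD43 line 1, 976 without line 2, 9 without line 4 and 17 without line 5. Without MommeD43 line 2 the fit gave the batch 1 library of MommeD43 line 1 a weight of 26.5 against a median of 0.746 in FVB/NJ. With the weights as reported kept, 4 genes passed without that line (Shd, Pcdhga12, Fzd10 and 5930412G12Rik).

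Fits added after seeing the data gave 1 gene with FVB/NJ libraries alone at equal weights, 1 with the means of the FVB/NJ lines at equal weights and 0 without any line at equal weights (limma). The strain difference passed in 61 genes with all 24 columns and in 0 to 3 without a line (3 without MommeD43 line 2). In batch 2 alone the list medians moved to -0.10 for astrocyte, -0.38 for oligodendrocyte-lineage, -0.60 for clustered protocadherin, -1.08 for beta protocadherin and -0.35 for antigen presentation genes. Without a line at equal weights the medians ranged from -0.57 to -0.30 for clustered protocadherins, from -0.78 to -0.47 for the beta cluster (-0.77 without wild-type line 4) and from -0.32 to -0.16 for antigen presentation. The causes were not tested. Batch 2 was the shallower batch, and 794 genes held a shared lowest value there or in batch 1, so absence of a change at low levels was not detectable at this depth.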

Other observations

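Small RNAs that lack a poly(A) tail, such as Rnu1a1 of the spliceosome, Rn7sk, which restrains transcription elongation, and Rmrp of the RNase MRP ribonucleoprotein, were looked at after their values were seen. Of 20 in the table, 8 had a mean of at least 0 log2 CPM in either group. All 8 had a change below 0 with an unadjusted p under 0.05, a median of -1.46 and none called. Rnu1a1 and Rny1 entered through the wild-type mean alone, so the filter in part sets this count. The difference of the line means, which leaves the weights out, had a median of -0.43 over the same 8. The batch 1 library of wild-type line 2, with a weight of 4.26, held the highest value of 7 of the 8, for example 2.16 in Rnu1a1, where the other FVB/NJ libraries were at 0.21 or less (in Rny1 the batch 2 library of that line was highest). All 6 libraries of batch 2 shared a single value of Rnu1a1, the form that a count of 0 takes after the correction. The part of that library in these values was not tested.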
